A study of Mus musculus with 7 samples.

Results

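ChREBP-axis genes were examined in islets of mice in which Wnt4 had been inactivated in β-cells. The carbohydrate response element binding protein ChREBP, encoded by Mlxipl, pairs with its partner MLX and binds carbohydrate response elements in the promoters of genes that respond to glucose. In β-cells glucose enters through transporters such as GLUT2, is phosphorylated, and the phosphorylated products activate ChREBP. Txnip, which encodes the thioredoxin-interacting protein, and its close relative Arrdc4 are among the best known glucose-induced targets of the factor in islets. The genes were chosen by name and not by a threshold on the measurements: Mlxipl, Mlx, Txnip, Arrdc4, Fgf21, Pklr, Gpd1, Klf10 and Ppargc1a. Every array probe whose transcript accession belongs to 1 of these 9 genes was kept, which gave 9 of 22911 named genes and 16 of 56605 probes. Of these, 12 probes were bright enough to be tested, for which a minimum of 3 arrays with a signal well above background was required, and each of the 9 genes had at least 1 tested probe.

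Islet RNA was hybridised to 1 single-colour array per mouse, for 3 control and 4 Wnt4βKO male mice, which are littermates. All 7 mice were homozygous for a floxed Wnt4 allele and received tamoxifen by gavage at 4 to 5 weeks of age, and islets were collected at 7 weeks. The 4 Wnt4βKO mice also carried Pdx1CreER, a tamoxifen-activated Cre recombinase under the Pdx1 promoter, and the 3 controls had no such transgene. No array came from mice with Pdx1CreER and intact Wnt4, so an effect of the transgene itself cannot be told apart from the loss of Wnt4. Pdx1 is active in β-cells and in some other pancreatic cells, and the RNA was that of whole islets, in which fewer cells of a type and less RNA per cell cannot be told apart.

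Between 45.5% and 49.0% of the spots of an array were well above background and no spot was saturated. The 10 β-cell, 6 α-cell and 4 δ- and PP-cell markers examined were all detected well enough to be tested. The Wnt4 probe (A_66_P139703) was lower in Wnt4βKO islets by a log2 difference of -0.49 ± 0.17 (SE; adjusted limma p 0.651), and its groups overlapped. Of 18 acinar markers, whose RNA comes from exocrine cells, 16 were lower in Wnt4βKO islets, where 6540 of all 13666 named genes were. Their median log2 difference was -0.47, and their summed signal was 380820 to 403420 in the controls and 241460 to 363290 in Wnt4βKO. Of the 6 tested duct markers 5 were lower (median -0.19). Lower were also 4 of 10 β-cell (median 0.0098), 1 of 6 α-cell (0.09) and 1 of 4 δ- and PP-cell markers (0.06). By the array headers the 7 arrays shared 1 slide, with control 4 and Wnt4βKO 1 and 2 in slide row 1 and the other arrays in slide row 2.

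The promoters of the genes whose probes were lowest in Wnt4βKO islets are shown with their matches to an E-box or to a pair of E-box-like half-sites. Of these windows only that of Txnip held the pair in the orientation searched, which was taken from that window. The Arrdc4 and Fgf21 windows held a single E-box, which alone does not mark a ChREBP-MLX site. Each window is the RefSeq sequence of mouse build GRCm38.p6 from 250 bases before to 50 bases after the transcript start, written in the direction of the gene. The letters searched, on both strands, were the E-box CACGTG and a pair of E-box-like half-sites 5 bases apart, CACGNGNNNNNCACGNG, where N is any base. The second motif was written after the Txnip window had been read, so its presence there is a description. Capitals mark the match. The Txnip window lies at chr3:96557707-96558006 on the plus strand, the Arrdc4 window at chr7:68749189-68749488 on the minus strand and the Fgf21 window at chr7:45615441-45615740 on the minus strand.
Txnip: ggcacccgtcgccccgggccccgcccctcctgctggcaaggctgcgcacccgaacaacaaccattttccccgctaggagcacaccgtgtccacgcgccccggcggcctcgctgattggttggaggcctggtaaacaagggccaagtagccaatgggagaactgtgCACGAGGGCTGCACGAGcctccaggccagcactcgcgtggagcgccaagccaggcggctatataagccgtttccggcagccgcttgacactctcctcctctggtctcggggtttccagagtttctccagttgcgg
Arrdc4: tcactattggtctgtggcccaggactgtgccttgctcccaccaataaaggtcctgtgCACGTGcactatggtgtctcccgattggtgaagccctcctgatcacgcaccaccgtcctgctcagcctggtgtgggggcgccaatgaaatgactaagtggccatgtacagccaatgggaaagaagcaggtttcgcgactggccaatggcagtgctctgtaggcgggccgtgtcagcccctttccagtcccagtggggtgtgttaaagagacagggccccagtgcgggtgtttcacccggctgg
Fgf21: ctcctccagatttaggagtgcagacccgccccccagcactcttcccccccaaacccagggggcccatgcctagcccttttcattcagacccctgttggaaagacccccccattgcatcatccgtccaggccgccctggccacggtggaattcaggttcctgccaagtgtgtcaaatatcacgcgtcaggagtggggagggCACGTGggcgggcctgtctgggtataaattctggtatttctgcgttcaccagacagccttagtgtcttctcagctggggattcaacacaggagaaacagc

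The paired half-sites of Txnip, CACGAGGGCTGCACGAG, span -85 to -69 from the start, and no E-box is present in that window. The E-box of Arrdc4 lies at -193 to -188 and that of Fgf21 at -50 to -45. Both ChREBP-MLX subunits have an E-box in a window of their own, at -98 to -93 in Mlxipl and at -40 to -35 in Mlx. The windows of Pklr and Ppargc1a and the second window of Mlxipl held neither motif as written. The paired motif asks for both half-sites in the same orientation. The second Pklr window holds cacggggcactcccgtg, half-sites 5 bases apart in opposite orientation, which the search did not cover. The table gave windows for 7 of the 9 genes, and Gpd1 and Klf10 were not searched. Of 32851 windows in the table, 7.15% held an E-box and 0.0487% (16 windows) held the paired half-sites in the orientation searched. Since that motif was written after the Txnip window had been read, its share is no test for Txnip. A match is only a match of letters, and the arrays carry no measurement of binding.

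The comparison asked whether the glucose-responsive genes of the axis differed between Wnt4βKO and control islets, where Slc2a2, the GLUT2 gene, was reduced. Slc2a2 (A_52_P409988) fell by 1.54 ± 0.10 (SE) in log2 signal (adjusted limma p 0.00877) and is the reference against which the genes were read. Its adjusted limma p was between 0.0658 and 0.121 without control 2, 3 or 4 or without Wnt4βKO 3, and 0.0900 on the processed signal, 0.179 with median scaling and 0.441 with the acinar mean as a covariate, with differences from -1.58 to -1.48 under these settings. With the replicate number as a block, over replicates 2 to 4, the Slc2a2 difference was -1.47 and its adjusted limma p 0.550. No probe of the 9 genes passed the adjusted threshold of 0.05, which 0.0153% of all tested probes passed. Of the 12 tested probes, 4 had an unadjusted limma p under 0.05, all 4 lower in Wnt4βKO, against 6.96% of all tested probes in either direction, 3.63% lower and 3.33% higher. Those 4 belong to 3 genes, Txnip with both of its probes, Arrdc4 and Fgf21. Every Wnt4βKO array lay below every control array for 3 of the 12, which are the Txnip and Fgf21 probes, against 3.7% of all tested probes, and 7.24% with separate groups in either direction. The median log2 difference was -0.12 over the 12 probes and 0.0027 over all tested probes. The Fgf21 probe entered the test only through its control arrays, so it had to be lower and these counts rest on it in part. Without control 2 or without control 4, the count at an unadjusted p under 0.05 was 2, the Txnip probes, and Fgf21 was then not tested.

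**Figure D1:**
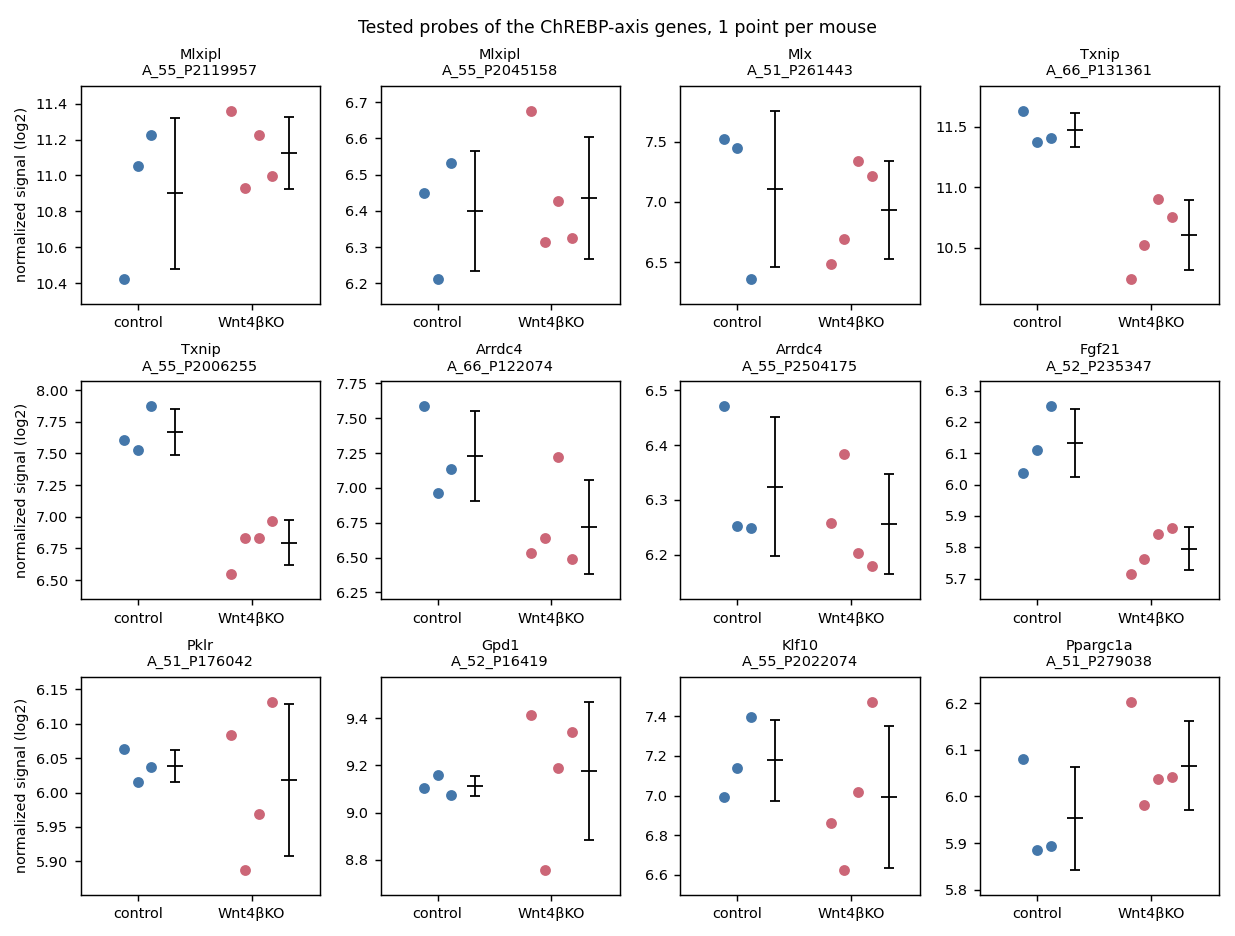
Normalized log2 signal (vertical axis, a separate scale in each panel) of the 12 tested probes of the ChREBP-axis genes, with 1 point per mouse and the mean ± SD of each group as a black bar. The 4 Wnt4βKO points lie below the 3 control points for both Txnip probes and for Fgf21, and the groups overlap in the other 9 panels.

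Txnip, an α-arrestin that binds thioredoxin and restrains glucose uptake, had the lowest values relative to control among the genes well above background in both groups. Its brighter probe (A_66_P131361) gave log2 signals of 11.63, 11.37 and 11.41 in controls 2, 3 and 4, and of 10.25, 10.53, 10.91 and 10.75 in Wnt4βKO 1 to 4. All 4 Wnt4βKO arrays were below all 3 controls. The log2 difference was -0.86 ± 0.16 (SE), with a 95% confidence interval from -1.24 to -0.48, so that Wnt4βKO islets held 55.0% of the control signal.

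The unadjusted limma p of this probe was 9.09e-04 and the adjusted p 0.440. The dimmer Txnip probe (A_55_P2006255) gave 7.60, 7.53 and 7.87 in controls and 6.55, 6.83, 6.83 and 6.97 in Wnt4βKO 1 to 4. Again no Wnt4βKO array reached a control. The difference was -0.87 ± 0.13 (SE), with an interval from -1.17 to -0.58, an unadjusted limma p of 1.89e-04 and an adjusted p of 0.282.

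Both Txnip probes were well above background on all 7 arrays, and the root mean square difference between their values, each centred on its own mean, was 0.18 on the log2 scale. Within slide row 1, with 1 control and 2 Wnt4βKO arrays, the bright and the dim probe differed by -1.02 and -1.18, and within row 2, with 2 arrays of each group, by -0.67 and -0.66. Both were therefore lower in Wnt4βKO within each row. With genotype in the model the bright probe was higher in row 2 by 0.30 ± 0.13 (SE), and the dim probe differed between rows by 0.0035 ± 0.14 (SE). With the mean of the acinar markers as a covariate the differences were -0.63 (unadjusted limma p 0.0236) and -0.78 (unadjusted limma p 0.00550). The part of exocrine RNA in the Txnip values was not tested beyond this.

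Set beside Slc2a2 array by array, Txnip was low in the same 4 arrays. Relative to the control mean, Slc2a2 was at -1.74, -1.50, -1.57 and -1.33 in Wnt4βKO 1 to 4. The bright Txnip probe was at -1.22, -0.95, -0.56 and -0.72 and the dim probe at -1.12, -0.84, -0.83 and -0.70 in the same order. Wnt4βKO 1 had the lowest value of all 3 probes. Wnt4βKO 4 had the highest value of Slc2a2 and of the dim Txnip probe, whereas Wnt4βKO 3 had the highest value of the bright one. In the controls Slc2a2 was between -0.06 and 0.04 and the Txnip probes between -0.14 and 0.21. The groups form separate clusters of 3 and 4 arrays, so a relation between Slc2a2 and Txnip cannot be tested across them.

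**Figure D2:**
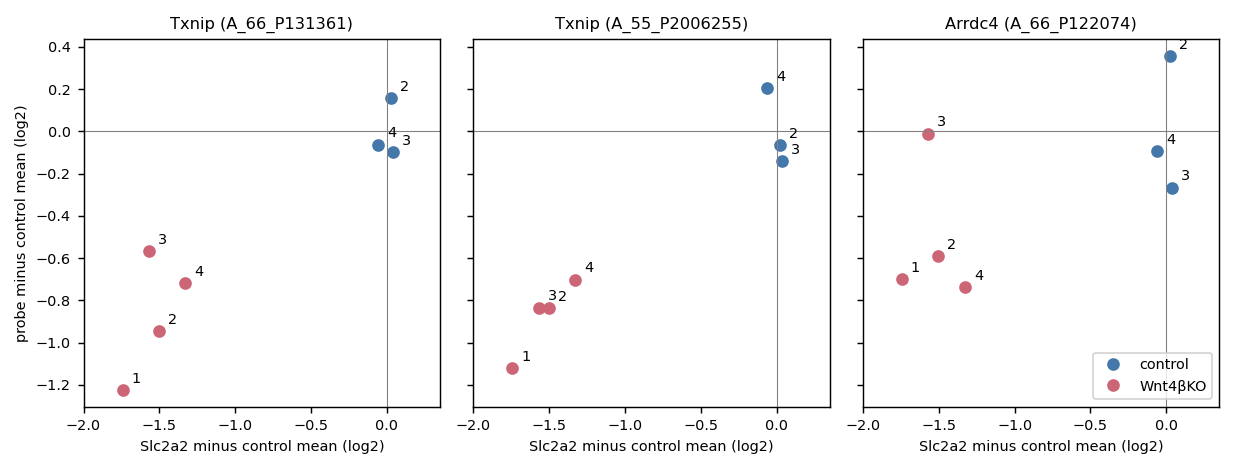
Log2 signal relative to the control mean of Slc2a2 (horizontal axis) against the same quantity for both Txnip probes and the brighter Arrdc4 probe (vertical axis), with 1 point per mouse labelled by its replicate number. Both Txnip panels show the 4 Wnt4βKO mice below and left of the controls, whereas Arrdc4 of Wnt4βKO 3 lies at -0.01, among the controls.

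By the measure of likeness, the root mean square difference of centred log2 values over 7 arrays among 13666 genes, the genes most like the bright Txnip probe were Rhobtb1 (0.10), Cryba2 (0.13), Tmod2 (0.13), Ttc28 (0.13) and Gpa33 (0.14). The second Txnip probe differed from the first by 0.18, so these 5 genes lay nearer to it than its own second probe.

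Arrdc4, which like Txnip encodes an α-arrestin, was measured by 2 probes of unequal brightness. Its brighter probe (A_66_P122074) gave 7.58, 6.96 and 7.14 in controls and 6.53, 6.64, 7.22 and 6.49 in Wnt4βKO 1 to 4. Wnt4βKO 1, 2 and 4 were below every control and Wnt4βKO 3 was above 2 of the 3. The difference was -0.51 ± 0.22 (SE), with an interval from -1.02 to just below 0, an unadjusted limma p of 0.0497 and an adjusted p of 0.716.

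Without control 2, which had the highest Arrdc4 value, the difference was -0.34, with an unadjusted limma p of 0.176. Its unadjusted p was under 0.05 in 9 of the 21 alternative treatments of the data, and with the acinar mean as a covariate the difference was -0.18. The dim Arrdc4 probe (A_55_P2504175), which lay between 6.18 and 6.47 on all arrays, differed by -0.07 ± 0.09 (SE) with overlapping groups. The probes of Arrdc4 thus gave unequal differences.

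Fgf21 encodes a secreted metabolic hormone that liver and pancreas make. Its probe (A_52_P235347) gave 6.04, 6.11 and 6.25 in controls and 5.71, 5.76, 5.84 and 5.86 in Wnt4βKO 1 to 4. It was well above background in all 3 controls and in none of the 4 Wnt4βKO arrays, so the Wnt4βKO level is only a bound. Against the mean of the lowest signals well above background or the probe's own, which was 5.85, the control mean of 6.13 was at least 1.22-fold higher. The log2 difference of the measured values was -0.34 ± 0.08 (SE), and since the Fgf21 probe entered the fit only through the controls its p is no test of the difference. The part of exocrine RNA in the Fgf21 values was not tested beyond a fit with the acinar mean as a covariate. That fit put the difference at -0.33. Its size rests on how background was treated, at -0.79 without background correction, -2.02 with a normexp offset of 0 and -3.55 on the scanner's processed signal, from which background is already subtracted. Under the last of these Fgf21 lay lower than either Txnip probe, as it did with an offset of 0. The Wnt4βKO values of Fgf21 are at background, so this order does not show a larger fall of Fgf21 than of Txnip.

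For the factors themselves no difference beyond the spread between mice was found. The brighter Mlxipl probe (A_55_P2119957) gave 10.42, 11.05 and 11.23 in controls and 11.36, 10.93, 11.23 and 10.996 in Wnt4βKO 1 to 4. Control 2 stood below the other 6 arrays, which overlapped. The difference was 0.23 ± 0.20 (SE), with an interval from -0.25 to 0.70 and an adjusted limma p of 0.883.

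The dim Mlxipl probe (A_55_P2045158) lay between 6.21 and 6.68 and differed by 0.04 ± 0.12 (SE), with an interval from -0.25 to 0.32. Mlx, the partner of ChREBP, was measured at A_51_P261443 with 7.52, 7.45 and 6.36 in controls and 6.49, 6.69, 7.34 and 7.22 in Wnt4βKO 1 to 4. Its arrays fell into separate low and high sets, each with mice of both genotypes. The Mlx difference was -0.18 ± 0.33 (SE), with an interval from -0.95 to 0.60 and an adjusted limma p of 0.946.

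The low and high sets of Mlx matched the slide rows. Row 1, with control 4 and Wnt4βKO 1 and 2, lay between 6.36 and 6.69, and row 2 between 7.22 and 7.52. With genotype in the model, row 2 was higher than row 1 by 0.86 ± 0.12 (SE), with an unadjusted limma p of 2.33e-04 and a p adjusted over all probes of 0.133. Rows did not overlap for 10.6% of all tested probes and, of the 12 probes of the axis, for Mlx alone. Within rows the Wnt4βKO minus control difference of Mlx was 0.23 in row 1 and -0.21 in row 2, so that no direction held. The rows also hold different mice, so slide position and differences between mice cannot be told apart for Mlx.

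**Figure D3:**
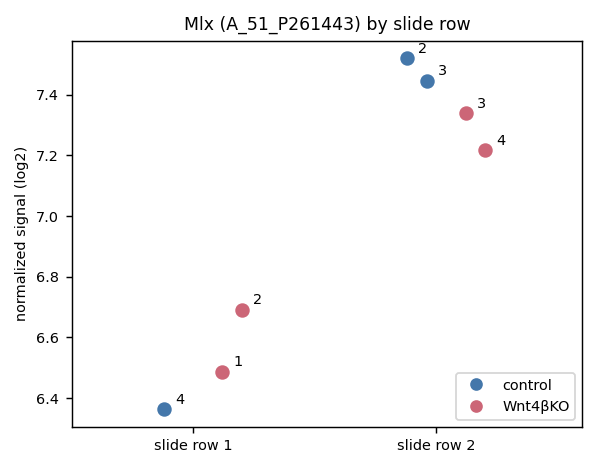
Normalized log2 signal of the tested Mlx probe (vertical axis) by row of the slide (horizontal axis), with 1 point per mouse labelled by its replicate number and coloured by group. Arrays of row 1 lie between 6.36 and 6.69 and those of row 2 between 7.22 and 7.52, with both genotypes in each row.

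The second Mlx probe (A_66_P117739) did not stand clearly above background in any sample and was not tested. Mlxip, which encodes MondoA, the paralogue of ChREBP that also pairs with MLX, differed by 0.0039 ± 0.09 (SE) at A_51_P246727, with an interval from -0.21 to 0.22.

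The enzymes of the axis overlapped between the groups. Pklr, which encodes the liver and red cell pyruvate kinase, was close to background at A_51_P176042, with 6.06, 6.02 and 6.04 in controls and 6.08, 5.89, 5.97 and 6.13 in Wnt4βKO 1 to 4. It was well above background in all 3 controls and in 3 of the 4 Wnt4βKO arrays, and its difference was -0.02 ± 0.08 (SE), with an interval from -0.21 to 0.17. Gpd1, the cytosolic glycerol-3-phosphate dehydrogenase, gave 9.10, 9.16 and 9.07 in controls and 9.41, 8.76, 9.19 and 9.34 in Wnt4βKO at A_52_P16419. The controls lay close together, inside the spread of the Wnt4βKO arrays. The difference of Gpd1 was 0.06 ± 0.16 (SE), with an interval from -0.30 to 0.43.

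Of the regulators, Klf10 is a glucose-responsive zinc-finger repressor and Ppargc1a encodes the coactivator PGC-1α. Klf10 gave 6.99, 7.14 and 7.40 in controls and 6.86, 6.63, 7.02 and 7.47 in Wnt4βKO at A_55_P2022074, a difference of -0.18 ± 0.20 (SE), with an interval from -0.65 to 0.29. Wnt4βKO 2 had the lowest value of Klf10 and Wnt4βKO 4 the highest. The Klf10 difference was -0.06 without Wnt4βKO 2, -0.07 without control 4, -0.28 without control 2 and -0.35 without Wnt4βKO 4, and -0.42 with the acinar covariate. Ppargc1a (A_51_P279038) gave 6.08, 5.89 and 5.89 in controls and 6.20, 5.98, 6.04 and 6.04 in Wnt4βKO, and was well above background in 1 control and in all 4 Wnt4βKO arrays. The Ppargc1a difference was 0.11 ± 0.09 (SE), with an interval from -0.09 to 0.32. Near background it moved with the treatment of the data, to 0.54 with an offset of 0, 0.97 on the processed signal and 0.03 with the acinar covariate, and it lay from 0.07 (without Wnt4βKO 1) to 0.18 (without control 2) with an array left out. The second probes of Gpd1 (A_66_P137409), Klf10 (A_55_P2500722) and Ppargc1a (A_55_P2745394) stood well above background in 0 of the 7 arrays and were not tested.

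Genes around the axis were read from 8 lists with 81 genes in all, 1 probe a gene. Of the 73 tested, 42 were lower in Wnt4βKO, where 6540 of all 13666 named genes were, the median log2 difference was -0.02, and that over all named genes was 0.0075. An unadjusted limma p under 0.05 was found for 7 lower and 5 higher genes, or 16.4% of those tested, against 8.94% of all named genes (4.43% lower and 4.51% higher), and Slc2a2 was the 1 gene past the adjusted threshold, which 0.022% of all named genes passed. Every Wnt4βKO array was lower for 4 genes and higher for 3, where 4.13% and 4.22% of all named genes stood so. Slc2a2, the reference whose fall was known beforehand, is 1 of the 7 lower genes and 1 of these 4. It is also the whole adjusted count, so that count says nothing about the other genes of the lists. Besides Slc2a2, 6 genes had an unadjusted p under 0.05 and groups that did not overlap, and none of them passed after adjustment.

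Among sugar-metabolising enzymes, Fbp1, the gluconeogenic fructose bisphosphatase, lay at 9.18 to 9.43 in controls and 9.91 to 10.61 in Wnt4βKO, a difference of 0.97 ± 0.19 (SE; adjusted limma p 0.460). Gpd2, the mitochondrial counterpart of Gpd1, lay at 7.26 to 7.80 and 7.05 to 7.17, a difference of -0.51 ± 0.14 (SE). Pfkl, the liver-type phosphofructokinase, lay at 7.10 to 7.23 and 7.29 to 7.45, a difference of 0.18 ± 0.07 (SE). Fbp1 and Pfkl were thus higher, and Gpd2 lower, in every Wnt4βKO array than in any control.

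Scd2, a fatty acid desaturase, lay at 9.54 to 10.02 in controls and 8.80 to 9.35 in Wnt4βKO, a difference of -0.66 ± 0.17 (SE). Klf15, a zinc-finger factor of fasting metabolism, differed by -0.52 ± 0.14 (SE), and Ppargc1b, the relative of Ppargc1a, by 0.42 ± 0.12 (SE). Every Wnt4βKO array was below the controls for Scd2 and Klf15 and above them for Ppargc1b.

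By list, the lipogenic genes had 12 of 15 lower with a median of -0.07, beside the 6540 of 13666 named genes that were lower, and of the 15 Scd2 was lower and Agpat2 higher at an unadjusted p under 0.05. A dimmer Agpat2 probe (A_51_P238563) was at -0.10, and a dimmer Acacb probe (A_55_P2019054) was at -0.45 (unadjusted limma p 0.0319). Fasn and Acly, the core enzymes of fatty acid synthesis, differed by -0.07 ± 0.21 (SE) and -0.34 ± 0.33 (SE). A dimmer Acly probe (A_55_P2082914) went the other way, at 0.08 ± 0.29 (SE). Of the thioredoxin, α-arrestin and inflammasome partners of Txnip, 0 of 9 had an unadjusted p under 0.05, where 8.94% of all named genes had, and 4 were lower. Thioredoxin itself, Txn1, differed by 0.38 ± 0.30 (SE), and Arrdc1, Arrdc2 and Arrdc3, the relatives of Arrdc4, by 0.12, 0.15 and 0.20. The receptor components for FGF21 had 0 of 4 under 0.05, and Klb, its co-receptor, differed by -0.15 ± 0.11 (SE).

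The remaining lists were small, and 8.94% of all named genes had an unadjusted limma p under 0.05. The counts by list were not tested against that share. Among the bHLH partners and relatives of ChREBP, Myc was lower at an unadjusted p under 0.05 and the other 8 of 9 were not past it. Of 11 genes of glucose entry and early sugar phosphates, Slc2a2 and Pfkfb2 were lower and Pfkl higher at that threshold, and of 9 further sugar enzymes Gpd2 was lower and Fbp1 higher. Of 8 other glucose-responsive regulators, Rgs16 and Klf15 were lower, and of 8 relatives and partners of Ppargc1a, Ppargc1b and Nrf1 were higher. Dimmer probes of these genes gave smaller differences with overlapping groups, at -0.14 and -0.15 for Pfkfb2, -0.07 for Myc and, in the other direction, -0.07 for Nrf1.

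**Figure D4:**
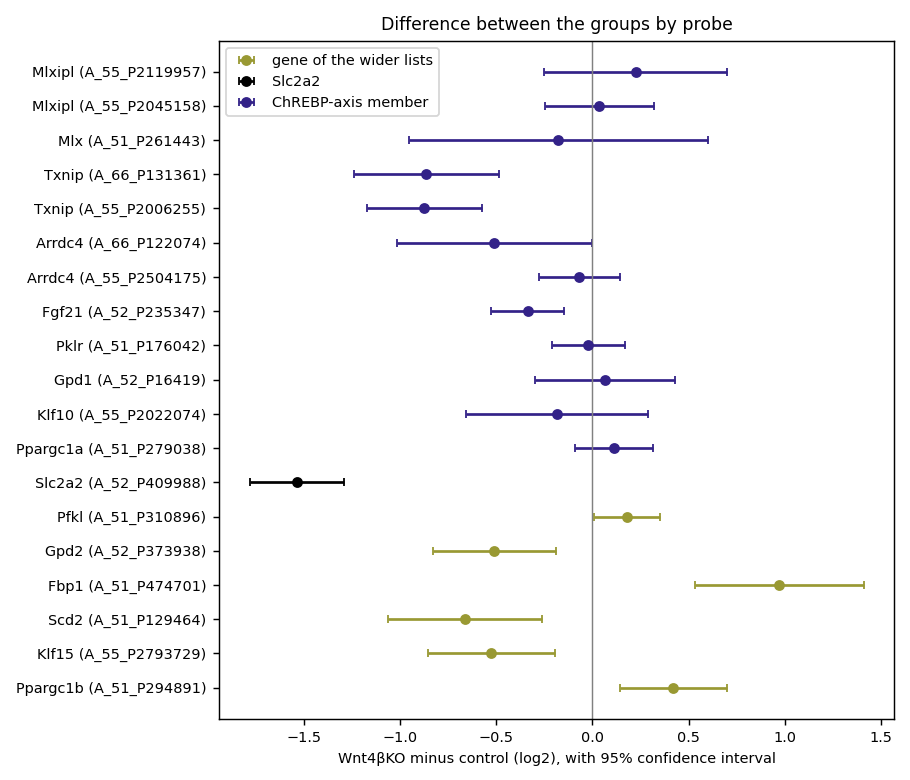
Wnt4βKO minus control log2 difference with its 95% confidence interval (horizontal axis) for the 12 tested probes of the axis, Slc2a2 and the 6 other genes named from the surrounding lists. The intervals of both Txnip probes and of Fgf21 lie below 0. That of the bright Arrdc4 probe ends just below 0, and those of the other 8 probes of the axis cross 0. The Fgf21 probe entered the fit only through the controls, so its interval is no test of the difference.

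The Txnip difference was followed through 21 alternative treatments of the data. Both Txnip probes had an unadjusted limma p under 0.05 in all 21, with differences from -0.96 to -0.63 for the bright probe and from -1.42 to -0.77 for the dim one. An adjusted p under 0.05 was reached in 0 of the 21 by either. The dim probe reached -1.42, or 37.4% of control, on the processed signal, where the bright probe was at -0.85.

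**Figure D5:**
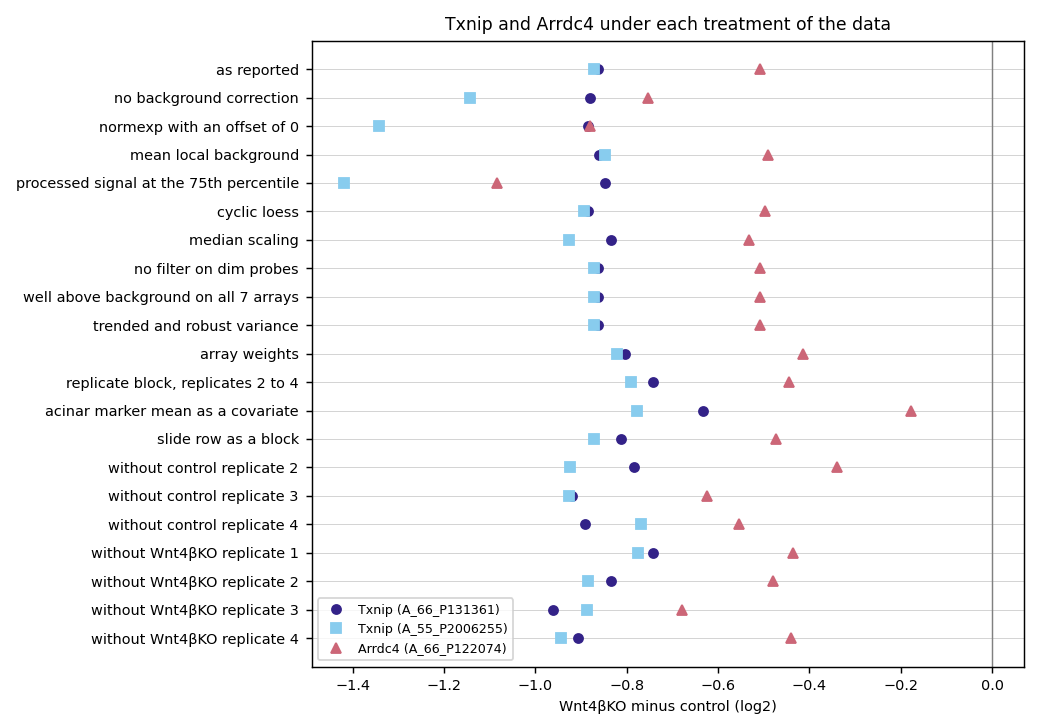
Wnt4βKO minus control log2 difference (horizontal axis) of both Txnip probes and the bright Arrdc4 probe under each treatment of the data (vertical axis), with the reported treatment on top and the mean over probes of a gene not drawn. All points lie below 0, with the bright Txnip probe between -0.96 and -0.63 and Arrdc4 between -1.08 and -0.18.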

How the data were processed

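Islet RNA of 7 mice (50 ng each) was hybridised to Agilent single-colour arrays. The authors deposited linear spot intensity values, not normalized between arrays, made with Agilent Feature Extraction 12.0.1.1 per the file headers (9.1 in the submitters' processing notes). The deposited detection and outlier flags were used as given. A deposited value table on the log2 scale, with 36693 probes, was also given by the authors, but its columns did not match the arrays (highest correlation of centred values with any array 0.121) and it was not used. Per the methods of the study, 1 control was left out by the authors for quality.

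Following those methods, median signals were corrected with normexp (offset 50) and then quantile normalized. Between these steps control spots were left out and flagged outlier spots were set to missing (65 values among tested probes). Spots of a probe were averaged last. The 26151 of 56605 probes well above background on at least 3 arrays were fitted as Wnt4βKO minus control with limma 3.58.1 in R 4.3.3 by a two-sided test whose p-values were adjusted after Benjamini and Hochberg. The adjusted threshold was 0.05, and the study's unadjusted 0.05 is given beside it. Intervals are 95% and use limma's moderated spread. The normexp offset compresses differences of dim probes. Probes were named by accession through RefSeq GRCm38.p6 (58.3% named), and the array gives no probe sequence here, so the stretch of transcript a probe reads is unknown. For lists, the brightest probe stood for a gene. The number of arrays limits the precision, and p-values measure the spread between these mice.

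The genes, lists and alternatives were chosen with earlier results of these data known. Named were all probes of the 9 genes, Slc2a2, Mlxip, genes of the 8 surrounding lists with an unadjusted p under 0.05 and groups that do not overlap, and the 5 genes most like Txnip. Other listed genes named in the text were chosen after their values were seen. Alternatives covered background correction, signal, scaling, filter, variance model, array weights, replicate block, acinar covariate, slide row, mean over probes and each array left out. The fit was tested on simulated data. Marker lists were read by counts and levels only. 1 further gene that the rule names is not reported here.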

Additional observations from a re-analysis of the deposited data

Results flagged for a closer look

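Among 22 sets of 4 Wnt4βKO values examined for a value far from the others, 1 was flagged, where chance flags about 1 in 20. Klf15 (A_55_P2793729) gave 6.89, 6.95, 6.91 and 6.53 in Wnt4βKO 1 to 4, and the gap of Wnt4βKO 4 to its nearest neighbour was 0.87 of the range. The controls of Klf15 were at 7.09, 7.45 and 7.49.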

How the results depend on the processing

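No probe of the axis passed the adjusted threshold under any alternative but 1, the processed signal, where Fgf21 was under it (-3.55) and the count was 1. The Fgf21 probe entered the fit only through the controls, so its p is no test of the difference there either. The count at an unadjusted p under 0.05 was 4 with Fgf21 included, and 2 to 4 with an array left out, with 2 without control 2 and without control 4. Slc2a2 missed the adjusted threshold with the processed signal (-1.58), median scaling (-1.55) and the acinar covariate (-1.48), and it ranged from -1.62 to -1.45 with an array left out, missing it without control 2, 3 or 4 and without Wnt4βKO 3. The count of surrounding genes past it was then 0 in each of these, so 0 to 1 with an array left out. At an unadjusted p under 0.05 the surrounding genes, with Slc2a2 counted among them, numbered 12, 5 with median scaling, 4 with the acinar covariate and 7 to 13 with an array left out, with 7 without control 3 or Wnt4βKO 1. The share over all tested probes was 6.96%, 2.94% with median scaling, 2.31% with the acinar covariate and 5.53% to 8.57% with an array left out. Deviations of same-numbered mice had correlations of -0.131, 0.229 and -0.0069, and those of differently numbered mice lay between -0.311 and 0.109. These few values cannot decide whether same-numbered mice are pairs, and the reported fit used no pairing. With the replicate number as a block, over replicates 2 to 4, Slc2a2 was at -1.47 with an adjusted limma p of 0.550, the count of surrounding genes past the adjusted threshold was 0, and the count at the unadjusted threshold was 8. Under that replicate block Gpd1 was at -0.0147 and the dim Mlxipl probe at -0.0433.

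Probes near 0 changed sign. Mlx was at 0.172 with the processed signal and 0.0777 with the acinar covariate, and from -0.549 to 0.0289 with an array left out (above 0 without control 2). Gpd1 was at -0.0547 with the processed signal, -0.270 with the acinar covariate, and from -0.0145 (without Wnt4βKO 1) to 0.203. Pklr ranged from -0.0609 to 0.0238 (without Wnt4βKO 2). The dim Arrdc4 probe was at 0.0109 with the acinar covariate, and from -0.110 to 0.00493 (without control 2). The dim Mlxipl probe was at -0.106 with the acinar covariate, and from -0.0538 to 0.104 (below 0 without control 3 or Wnt4βKO 1). The bright one ranged from -0.0124 (without control 2) to 0.388. The cause was not tested. Median scaling moved the share of lower probes among those with an unadjusted p under 0.05 from 52.1% to 70.8%. With 1 slide and 1 scan, neither could be fitted as a block. Fgf21 was not tested with a control left out or where all 7 arrays had to be above background, and Fgf21, Pklr and Ppargc1a lay near background, which limits what their values can show.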
